A study of Drosophila melanogaster with 12 samples.

Results

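The mitochondrial ribosomal protein genes of Drosophila melanogaster were taken as every gene whose FlyBase symbol starts with mRpL, for the large subunit, or mRpS, for the small subunit. Of the 17492 genes with mRNA and pre-mRNA values, 72 met this rule, 47 of the large and 25 of the small subunit. All 72 had reads in every one of the 6 libraries used. The rule uses the symbol alone. The gene mRpS5 carries an identifier that is not among those used and was not analysed here, and tko and bonsai, which encode mitoribosomal proteins under other symbols, were kept apart and are given with the related genes.

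The mitochondrial ribosome, or mitoribosome, translates the few proteins encoded by mitochondrial DNA (mtDNA), which in animals are subunits of the respiratory chain and of ATP synthase. Its RNA comes from mtDNA, but its proteins are encoded in the nucleus, so their mRNAs must leave the nucleus and be translated in the cytosol before the proteins are imported into mitochondria. Many of these proteins are homologues of bacterial ribosomal proteins and share their number, while others have no bacterial counterpart. In larval body wall muscle, mitochondria supply much of the ATP for contraction.

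Total RNA came from the carcass, which is what is left of a larva once the internal organs are taken out, of stationary larvae in instar 3. The 2 groups compared were Nxt1 trans-heterozygotes, whose strain is given as yw, and wildtype (WT) larvae of the strain w1118, with 3 libraries each whose RNA had been mock-treated with water in place of RNase R. Nxt1 is a cofactor of the receptor that carries mRNA out of the nucleus, and the study asked how a mutant Nxt1 changes circular RNA (circRNA) and its proportion to linear mRNA and unspliced precursors (pre-mRNA). The labels name neither the Nxt1 alleles nor whether replicates came from separate pools of larvae, so p-values measure only the spread between these samples, and strain and genotype cannot be told apart. The libraries marked M were read as mock and those marked R as RNase R, since the labels do not spell the letters out. For every library the labels also give 0.05% bromophenol blue and an incubation of 30 min at 37 °C.

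Library depth was 19830526, 32840376 and 32868851 mRNA reads in Nxt1, against 32305641, 31492056 and 30193498 in WT. Nxt1 itself averaged 6.10 ± 0.429 FPKM in Nxt1 larvae and 9.64 ± 1.22 FPKM in WT (SD, n = 3 each), a log2 fold of -0.58 (limma, adjusted p = 0.0164, and 0.0579, 0.0649 and 0.0578 without Nxt1 replicate 1, Nxt1 replicate 3 and WT replicate 1). FPKM stands for fragments scaled to transcript length and sequencing depth. In the deposited values used here, the lengths stand beside the wrong genes and the library factors do not follow the depth above. FPKM of different genes are therefore not comparable until levels are given per length. Log2 folds are of FPKM + 1 in Nxt1 over WT unless stated otherwise. Marker genes of body wall muscle were higher in Nxt1 for 5 of 11 tested genes and those of epidermis and cuticle for 3 of 6, and the summed reads of each list were 1.94-fold and 2.41-fold those of WT. Fat body markers were higher for 4 of 6 and salivary gland markers for 5 of 5 tested genes, with sums 1.97-fold and 8.26-fold those of WT. Salivary gland reads, scaled by library factor, ranged over 5192 to 14439 in Nxt1 against 404 to 3250 in WT, although internal organs had been taken out before extraction. Of the other lists, 1 of 2 tested midgut markers was higher, hemocyte markers had 1 higher and 1 lower of 5, and imaginal and neuronal markers each had 1 lower, of 3 and 5 tested. The testis list (1 tested) and the list of larval oenocyte and trachea (2 tested) had none called by limma or edgeR, with 1 and 2 genes lower at an unadjusted p under 0.05, and no marker was at 0 in all libraries. In these bulk samples, fewer cells of a type and less RNA per cell cannot be told apart, and the part of tissue make-up in any result below was not tested.

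In Nxt1 carcasses few mitoribosomal protein mRNAs were called different from WT after adjustment. Of the 71 genes tested, 5 passed an adjusted p of 0.05 (limma, Benjamini-Hochberg over all genes tested), 3 of them higher in Nxt1 and 2 lower. That is 7.04% of the tested members, against 21.6% of all 8923 genes tested, of which 12.5% were higher and 9.1% lower. The median log2 fold was -0.01 over the members and 0.01 over all genes. At an unadjusted p under 0.05 (limma) there were 11 members, 5 higher and 6 lower. The gene left out, mRpL41, had a mean under the minimum of 1 FPKM as deposited, where its length is that of another gene. With its own length it averaged 4.09 FPKM in Nxt1 and 3.88 FPKM in WT. Of the 66 members that were not called, the log2 folds ran from -0.38 to 0.36. The 95% interval of every one lay within a 2-fold change of FPKM + 1. For 61 of the 66 it lay within a 1.5-fold change on that scale. The added 1 draws the folds of members with low FPKM towards 0, so these are not bounds on the change of FPKM itself. For example, mRpS18C had a log2 fold of -0.209, and of -0.345 with 0.1 added in place of 1. The standard error of a log2 fold had a median of 0.11 over the members, the same to 2 decimals as over all genes.

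**Figure D1:**
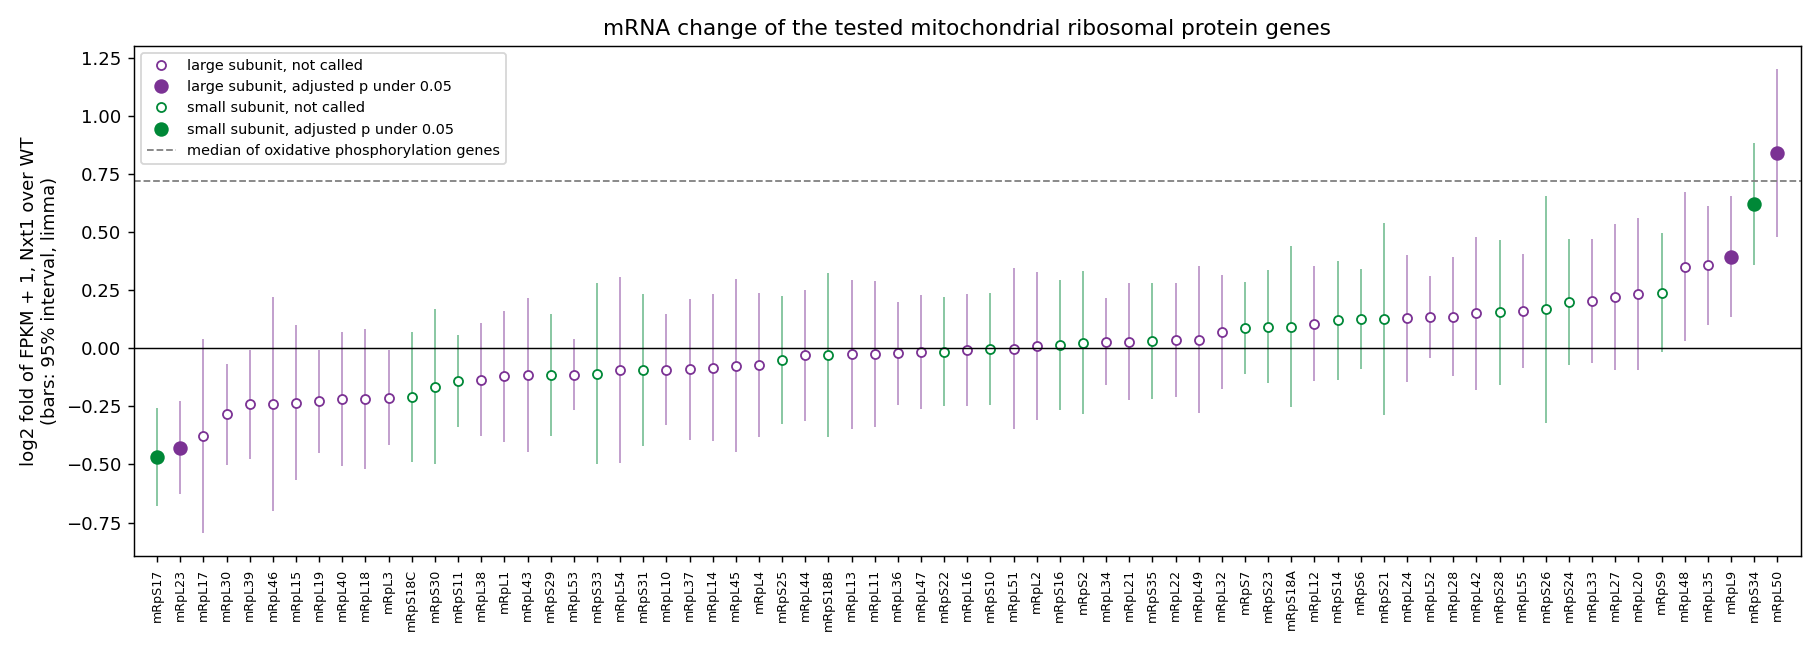
Log2 fold of FPKM + 1, Nxt1 over WT, for the 71 tested mitochondrial ribosomal protein genes in order of fold, with the 95% interval from limma; filled points passed an adjusted p of 0.05 and the dashed line is the median of the oxidative phosphorylation genes. The 5 filled points are at both ends, and of the members only mRpL50 lies above the dashed line at 0.72.

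The largest rise was that of mRpL50, which encodes a large-subunit protein with no bacterial counterpart. In Nxt1 it had 126.3, 103.9 and 90.3 FPKM, against 51.3, 62.7 and 62.8 FPKM in WT. Every Nxt1 library was above every WT library, with replicate 1 of Nxt1 the highest. The mean was 181% of that in WT, a log2 fold of 0.84 with a standard error of 0.15 (limma, adjusted p = 0.0144). The spans of mRpL50 and Neos overlap in the RefSeq annotation, and Neos itself had a log2 fold of 0.15 (limma, adjusted p = 0.332). The call was lost without Nxt1 replicate 2 (adjusted p = 0.0542) and without WT replicate 1 (adjusted p = 0.0520).

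The small-subunit gene mRpS34, whose human counterpart is needed for a stable small subunit, rose as well. Its mRNA was at 13.8, 12.3 and 13.1 FPKM in Nxt1 and at 7.90, 7.19 and 9.45 FPKM in WT. The groups did not overlap, and WT replicate 3 came nearest to the Nxt1 libraries. The mean was 160% of that in WT and the log2 fold 0.62 with a standard error of 0.11 (limma, adjusted p = 0.0139). Golgin104, which overlaps it, had a log2 fold of -0.03 (limma, adjusted p = 0.786). Without Nxt1 replicate 1, Nxt1 replicate 3 or WT replicate 1 the adjusted p was 0.0536, 0.0567 and 0.0572.

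The third gene called higher, mRpL9, encodes the counterpart of a bacterial protein that reaches out from the large subunit near the stalk formed by protein L1. It had 11.4, 11.7 and 9.86 FPKM in Nxt1 and 7.52, 7.60 and 9.24 FPKM in WT. The lowest Nxt1 library stood just above the highest WT library, again replicate 3. The mean was 135% of that in WT, with a log2 fold of 0.39 and a standard error of 0.11 (limma, adjusted p = 0.0469). This call was the least stable of the 5, being lost in 10 of the 17 alternatives tallied. Among these were edgeR's quasi-likelihood test on recovered reads (adjusted p = 0.0507) and, by limma, every omission of a single library except WT replicate 3. Fkbp39, which overlaps it, had a log2 fold of -0.18 (limma, adjusted p = 0.324).

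Both genes called lower encode counterparts of bacterial proteins that bind ribosomal RNA. For mRpS17, a small-subunit gene whose bacterial counterpart binds the RNA early in assembly, the values were 79.0, 80.6 and 71.7 FPKM in Nxt1 and 98.4, 108.7 and 114.0 FPKM in WT. All Nxt1 libraries were below all WT libraries, and no other gene overlapped its span. The mean was 72.0% of that in WT, a log2 fold of -0.47 with a standard error of 0.09 (limma, adjusted p = 0.0169). Leaving out Nxt1 replicate 1, 2 or 3 raised the adjusted p to 0.0543, 0.0542 and 0.0659.

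The other was mRpL23, whose bacterial counterpart lies at the exit of the peptide tunnel. It had 2.66, 2.52 and 2.25 FPKM in Nxt1 and 3.81, 3.52 and 3.69 FPKM in WT, with no overlap between the groups and little spread within each. The mean was 67.4% of that in WT. The log2 fold was -0.43 with a standard error of 0.08 (limma, adjusted p = 0.0184), and -0.61 on recovered reads without a pseudocount on FPKM (edgeR's quasi-likelihood test). The call was lost without Nxt1 replicate 2 (adjusted p = 0.0644), Nxt1 replicate 3 (adjusted p = 0.0677) or WT replicate 1 (adjusted p = 0.0757). CG8993, whose span overlaps it, had a log2 fold of 0.10 (limma, adjusted p = 0.438).

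**Figure D2:**
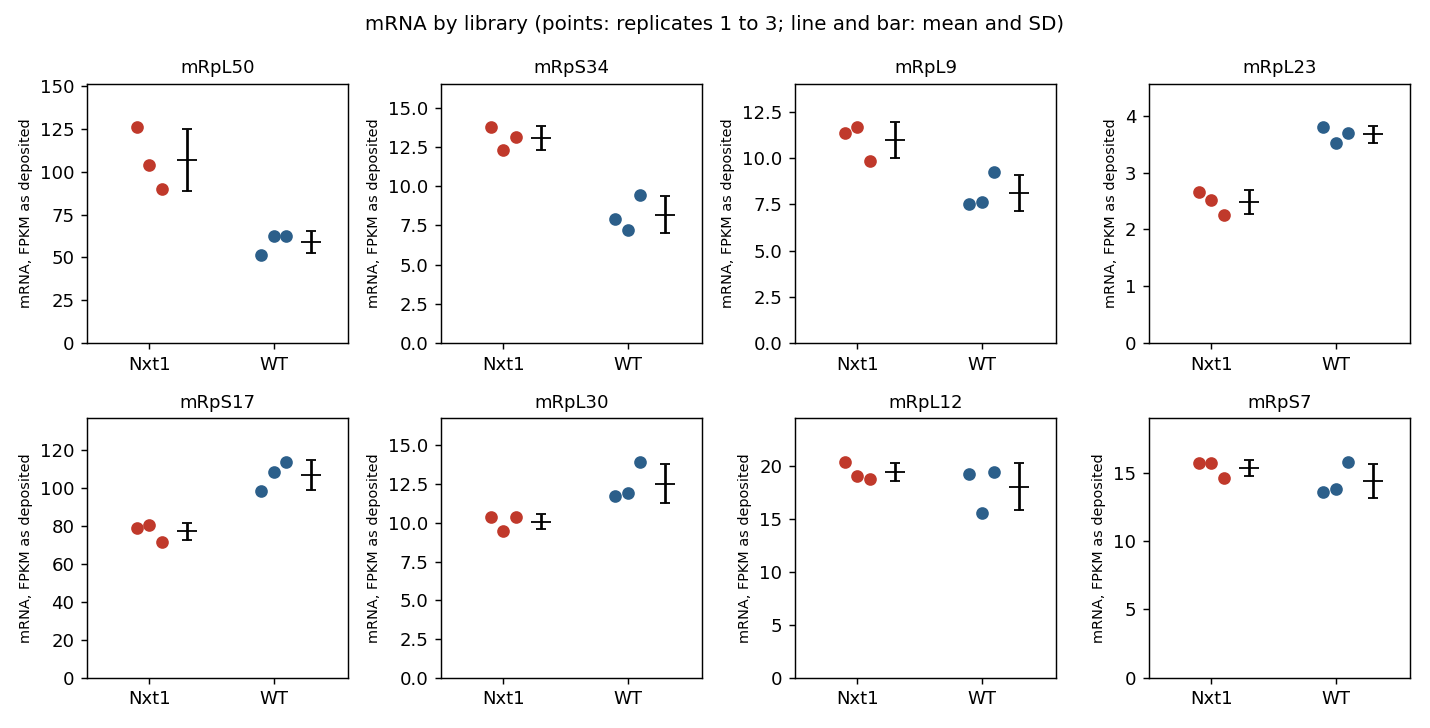
mRNA in FPKM as deposited for the 5 genes called and for mRpL30, mRpL12 and mRpS7, with 1 point per library (replicates 1 to 3 from left to right), Nxt1 left of WT, and the mean and SD beside each group; every axis starts at 0. The groups do not overlap for the 5 called genes and mRpL30, and overlap for mRpL12 and mRpS7.

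Other members lay between these ends. The next lowest was mRpL17, whose bacterial counterpart sits by the exit tunnel, at 59.6 ± 11.9 FPKM in Nxt1 and 77.2 ± 11.2 FPKM in WT (SD, n = 3 each). Its log2 fold of -0.38 missed the threshold (limma, adjusted p = 0.168), and the groups overlapped. mRpL30, the counterpart of another bacterial large-subunit protein, averaged 10.1 ± 0.507 FPKM in Nxt1 and 12.5 ± 1.24 FPKM in WT, with every Nxt1 library below every WT library. Its log2 fold of -0.28 was not called by limma (adjusted p = 0.0681) and was called lower by edgeR's quasi-likelihood test (adjusted p = 0.0387). At the upper end, mRpL35, also with a bacterial counterpart, had a log2 fold of 0.36 (limma, adjusted p = 0.0587), with 13.6 ± 1.79 FPKM in Nxt1 and 10.4 ± 0.373 FPKM in WT. mRpL48 followed with a log2 fold of 0.35 (limma, adjusted p = 0.110), with 7.32 ± 1.12 FPKM in Nxt1 and 5.51 ± 0.698 FPKM in WT.

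Counting libraries rather than tests, 6 members had every Nxt1 library above every WT library, against 24.2% of all genes tested. These were mRpL9, mRpL35, mRpL48, mRpL50, mRpL52 and mRpS34. In 8 members every Nxt1 library lay below every WT library, against 19.6% of all genes, namely mRpL3, mRpL19, mRpL23, mRpL30, mRpL38, mRpL39, mRpL53 and mRpS17. The groups overlapped for the other 57. By the count test on recovered reads, all 72 members could be tested and 5 were called, which is 6.94% against 22.5% of all 10484 genes, with 2 higher (mRpL50 and mRpS34) and 3 lower (mRpL23, mRpL30 and mRpS17). Of the 5 members that each test called, 4 were shared.

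The subunits gave like counts. Of 46 tested large-subunit genes, 2 were higher and 1 lower, with a median log2 fold of -0.02, and of 25 small-subunit genes, 1 was higher and 1 lower, with a median of 0.02. The 41 members that share a number with a bacterial ribosomal protein had 1 higher and 2 lower and a median of 0.01. The 30 tested members numbered above the bacterial set had 2 higher and none lower, and a median of -0.02. Whether these groups of members differ was not tested.

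Some members were named for a stated role rather than for their values, and limma called none of these on the deposited scale. In the stalk that recruits elongation factors, mRpL12 averaged 19.4 ± 0.876 FPKM in Nxt1 and 18.0 ± 2.18 FPKM in WT (SD, n = 3 each), a log2 fold of 0.11 (95% interval -0.14 to 0.35). mRpL10, which anchors mRpL12 in the stalk, had a log2 fold of -0.09 (95% interval -0.33 to 0.15), and mRpL11, at the base of the stalk, one of -0.02 (95% interval -0.34 to 0.29). Of the proteins next to the peptidyl transferase centre, mRpL2 had a log2 fold of 0.01 (95% interval -0.31 to 0.33). The bacterial counterpart of mRpL27 reaches that centre, but mRpL27 was named for its low level, given below. It had a log2 fold of 0.22 (95% interval -0.10 to 0.54). mRpL3 had one of -0.21 (95% interval -0.42 to -0.01), which missed the threshold after adjustment (limma, adjusted p = 0.127) although its groups did not overlap, at 18.8 ± 0.856 FPKM in Nxt1 and 22.0 ± 1.90 FPKM in WT.

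mRpL45, which in human holds the mitoribosome at the inner membrane beside the tunnel exit, had a log2 fold of -0.07 (95% interval -0.45 to 0.30). mRpL44, which in human carries a fold related to ribonuclease III, had one of -0.03 (95% interval -0.31 to 0.25). mRpS29, the counterpart of the human GTP-binding protein DAP3, averaged 248.3 ± 11.5 FPKM in Nxt1 and 270.1 ± 34.1 FPKM in WT, with a log2 fold of -0.11 (95% interval -0.38 to 0.15). mRpS7, whose bacterial counterpart organises the head of the small subunit, had a log2 fold of 0.09 (95% interval -0.11 to 0.29). mRpS30, whose human counterpart sits in the large subunit in spite of its name, had one of -0.16 (95% interval -0.50 to 0.17). Of the genes mRpS18A, mRpS18B and mRpS18C, all related to one bacterial protein, the log2 folds were 0.09, -0.03 and -0.21, and none was called.

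The size of the members' median log2 fold and the number of calls depended on the scaling. The deposited values centre the genes near 0, whereas equal totals of mRNA reads moved the median of all genes to -0.32 and that of the members to -0.30. Relative to all genes the members' median was then 0.03. On that scale 1 member (mRpL50) was higher and 27 were lower, against 3 and 2 on the deposited scale, while 54.8% of all genes were called. mRpL50 kept a log2 fold of 0.47, whereas mRpS34 had one of 0.28 and mRpL9 one of 0.06 and neither was called (limma, adjusted p = 0.0787 and 0.669). mRpS17 had a log2 fold of -0.84 and mRpL23 one of -0.71. The reads of the members together made up 0.0581%, 0.0584% and 0.0543% of the mRNA reads in Nxt1, against 0.0706%, 0.0657% and 0.0843% in WT, with no overlap. Divided by the deposited library factors the same sums were 19434, 19858 and 18041 in Nxt1, against 18354, 17079 and 21671 in WT, and the groups overlapped.

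WT replicate 3 stood apart from the other WT libraries for the members and for related lists alike. It was the highest WT library for 65 of the 71 tested members, or 91.5%, for 95.7% of oxidative phosphorylation genes, 98.8% of cytosolic ribosomal protein genes and 100% of mtDNA-encoded genes, against 46.0% of all genes. Measured from each gene's WT mean, the members' median was -0.01, 0.08 and -0.09 in the Nxt1 libraries and -0.02, -0.13 and 0.15 in the WT libraries. Between replicates the coefficient of variation had a median of 9.13% in Nxt1 and 13.7% in WT, against 8.14% and 11.7% over all genes. Without WT replicate 3, 5 members were higher (mRpL9, mRpL42, mRpL50, mRpS9 and mRpS34) and 2 lower (mRpL23 and mRpS17), and the median log2 fold was 0.08, with 30.2% of all genes called.

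**Figure D3:**
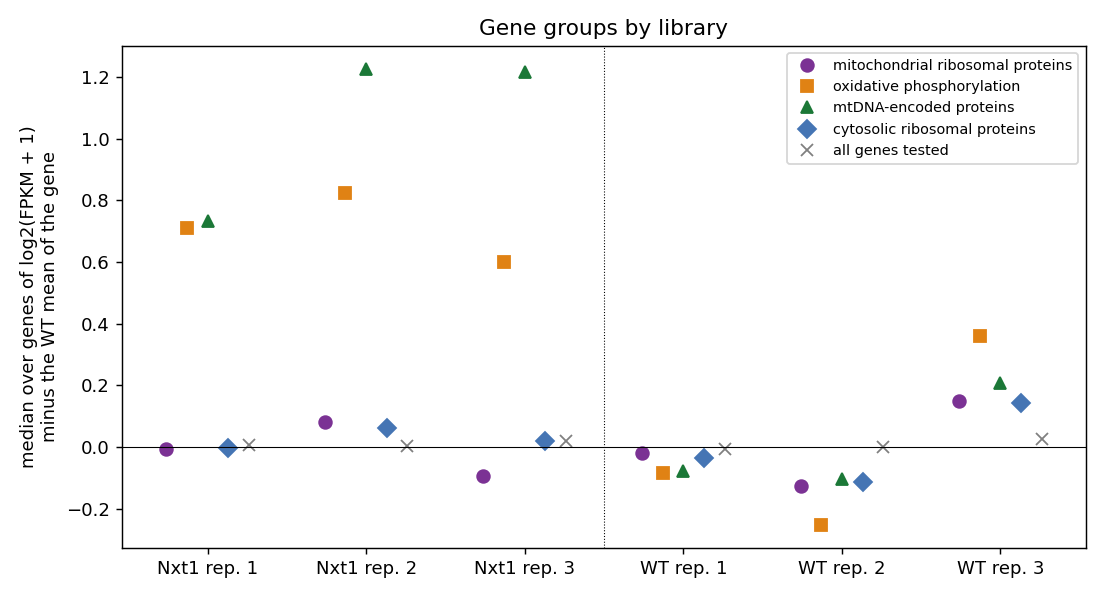
Median over the genes of each group of log2(FPKM + 1) minus the gene's WT mean, for each library, Nxt1 left of WT. The mitochondrial ribosomal proteins stay between -0.13 and 0.15 in all 6 libraries, while the median of the oxidative phosphorylation genes is 0.60 to 0.82 in the Nxt1 libraries and -0.25 to 0.36 in the WT libraries.

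The products and partners of the mitoribosome were set beside it from lists written for this comparison. Of 10 tested genes for proteins encoded by mtDNA, which are what the mitoribosome translates, 8 were higher in Nxt1 and none lower, with a median log2 fold of 1.06. The largest log2 folds were those of mt:ATPase6, a subunit of ATP synthase, and of mt:ND1, mt:ND4 and mt:ND3, subunits of complex I. mt:ATPase6 had 744.3, 1040.7 and 1027.8 FPKM in Nxt1 and 340.4, 334.0 and 369.4 FPKM in WT, so that all Nxt1 libraries were above all WT libraries, with a log2 fold of 1.41 (limma, adjusted p = 0.00359). The log2 folds of mt:ND1, mt:ND4 and mt:ND3 were 1.41, 1.34 and 1.27 (limma, adjusted p = 0.00761, 0.00859 and 0.0113).

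Nuclear genes for oxidative phosphorylation, whose proteins join the mtDNA-encoded ones in the respiratory chain and ATP synthase, were higher for 46 of 69 tested genes and lower for none, with a median log2 fold of 0.72. COX6B, a subunit of cytochrome c oxidase, averaged 552.3 ± 32.8 FPKM in Nxt1 and 226.8 ± 61.7 FPKM in WT (SD, n = 3 each), a log2 fold of 1.31 (limma, adjusted p = 0.00888). The next were ATPsyndelta and ATPsynD, subunits of ATP synthase, and COX5A, with log2 folds of 1.22, 1.19 and 1.16. Without Nxt1 replicate 1, 2 or 3 the number of oxidative phosphorylation genes called higher was 17, 13 and 21, and without WT replicate 1, 2 or 3 it was 14, 33 and 64, with medians from 0.58 to 0.87; the mtDNA list gave 8, 5 and 5 and then 6, 7 and 8, with medians from 0.96 to 1.22. With equal totals the medians of the mtDNA and oxidative phosphorylation lists were 0.69 and 0.36, still above 0, with 7 and 22 genes higher. These lists and the mitoribosomal genes share the same libraries, and muscle, cuticle and fat body markers moved with the lists that rose, a part that was not tested.

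The rest of the translation machinery in mitochondria had no call by limma on the deposited scale. None of the 16 tested genes for mitochondrial aminoacyl-tRNA synthetases, which load tRNAs with amino acids, passed the threshold, with a median log2 fold of -0.04, nor did any of 9 mitochondrial translation factors, with a median of 0.00. With equal totals 9 synthetase genes were lower, with a median of -0.38, and 3 translation factors, with a median of -0.26. On that scale 4352 of all 8923 genes were lower, with a median of -0.32. On the deposited scale at an unadjusted p under 0.05, 4 synthetase genes were lower and 1 translation factor was higher (limma), and by edgeR's quasi-likelihood test 2 synthetase genes were lower past the adjusted threshold and no translation factor was called. The mitoribosomal genes tko and bonsai had log2 folds of 0.13 and 0.21, and neither was called by either test or at an unadjusted p under 0.05.

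Among 14 tested genes for the upkeep and expression of mtDNA, 2 were lower and none higher. Without WT replicate 3, 2 were higher and 2 lower. With equal totals 9 were lower, with a median log2 fold of -0.43 against -0.32 over all genes. PolrMT, the RNA polymerase of mitochondria, had 2.79, 2.63 and 2.09 FPKM in Nxt1 and 5.11, 3.92 and 5.22 FPKM in WT, with no overlap. Its log2 fold was -0.71 with a standard error of 0.13 (limma, adjusted p = 0.0167). bsf, an RNA-binding protein that acts on mitochondrial transcripts, averaged 313.0 ± 17.8 FPKM in Nxt1 and 426.2 ± 53.8 FPKM in WT, a log2 fold of -0.44 (limma, adjusted p = 0.0414). TFAM, which packages mtDNA, had a log2 fold of -0.18 that was not called (limma, adjusted p = 0.138). Of 9 tested genes for protein import, 1 was lower, Tom7 of the outer membrane translocase, at 5.48 ± 0.153 FPKM in Nxt1 and 7.60 ± 0.451 FPKM in WT, with a log2 fold of -0.41 (limma, adjusted p = 0.0144). With equal totals 6 import genes were lower, with a median of -0.40 against -0.32 over all genes. The PolrMT call was lost without Nxt1 replicate 2 or 3 or WT replicate 1 (adjusted p = 0.0562, 0.0584 and 0.0666), the Tom7 call without Nxt1 replicate 2 or 3 (adjusted p = 0.0620 and 0.0547), and the bsf call without any 1 of the Nxt1 libraries or WT replicate 1 (adjusted p of 0.0945 to 0.137).

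The cytosolic ribosomal protein genes held few calls as well. Of 84 tested genes on the list, 1 was higher, RpL8 with a log2 fold of 0.30 (limma, adjusted p = 0.0481). Another 2 were lower, RpL7-like and RpL24-like with log2 folds of -0.42 and -0.37. Their symbols mark both as like a ribosomal protein, and limma called no other gene on the list lower. The median of the list was 0.03. With equal totals it was -0.34, against -0.32 over all genes, and 69 were lower and RpL8 had a log2 fold of -0.07. Without any 1 of the Nxt1 libraries or WT replicate 1 none of the 3 was called (limma), and the RpL8 call was lost without WT replicate 2 as well (adjusted p = 0.104).

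**Figure D4:**
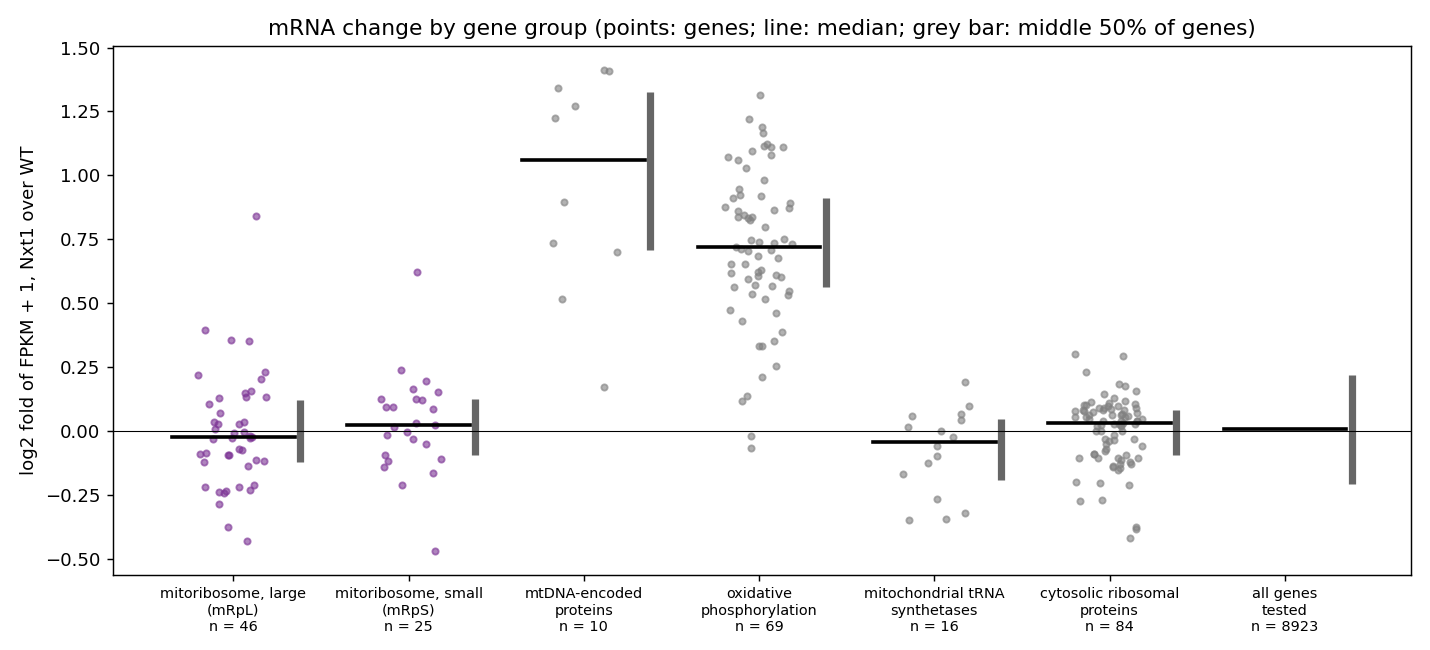
Log2 fold of FPKM + 1, Nxt1 over WT, for the tested genes of each group, 1 point per gene spread sideways at random; black lines are medians, grey bars span the middle 50% of genes, and for all genes only these are drawn. Both mitoribosomal groups centre at -0.02 and 0.02, while mtDNA-encoded proteins centre at 1.06 and oxidative phosphorylation at 0.72.

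Levels were compared between members per length. The lengths behind the deposited FPKM do not belong to the genes they stand beside, so each recovered read count was divided by the length found at the gene's own place in the order of identifiers, which 65 members had. mRpL53, of the large subunit, was the highest at 41.0 ± 0.831 FPKM in Nxt1 and 44.5 ± 1.48 FPKM in WT (SD, n = 3 each). Its reads were 98.4% to 99.5% of those of CG33155, whose span it overlaps, in every library, so that the reads of these genes cannot be told apart. Next came mRpS7, at 22.8 ± 0.912 FPKM in Nxt1 and 21.4 ± 1.82 FPKM in WT, and mRpL28, at 22.4 ± 1.15 FPKM in Nxt1 and 20.3 ± 2.79 FPKM in WT.

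The lowest levels per length were those of mRpL48, mRpL27 and mRpL21. mRpL48 averaged 3.74 ± 0.575 FPKM in Nxt1 and 2.82 ± 0.357 FPKM in WT. mRpL27 averaged 3.47 ± 0.487 FPKM in Nxt1 and 2.87 ± 0.436 FPKM in WT, and mRpL21 averaged 2.01 ± 0.216 FPKM in Nxt1 and 1.96 ± 0.186 FPKM in WT. From mRpL21 to mRpL53 the levels spanned 21.5-fold, and 11.1-fold without mRpL53.

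Between these ends the levels lay close together. The middle 50% of members ran from 6.10 to 11.8 FPKM in Nxt1 and from 6.31 to 12.0 FPKM in WT, with medians of 7.69 and 8.90 FPKM. Of 64 pairs of neighbours in the order, 2 were apart by more than the sum of their SDs over the libraries of both groups. The order of most neighbours is therefore not firm. Spearman's rho between the Nxt1 and WT levels of the 65 members was 0.949, a description across genes of the same libraries. The large and small subunits had like medians, 7.69 and 7.70 FPKM in Nxt1 and 8.90 and 8.73 FPKM in WT. On the same scale the median was 72.2 FPKM in Nxt1 and 47.2 FPKM in WT for oxidative phosphorylation, 710 FPKM in Nxt1 and 665 FPKM in WT for cytosolic ribosomal proteins, and 703 FPKM in Nxt1 and 268 FPKM in WT for mtDNA-encoded proteins.

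**Figure D5:**
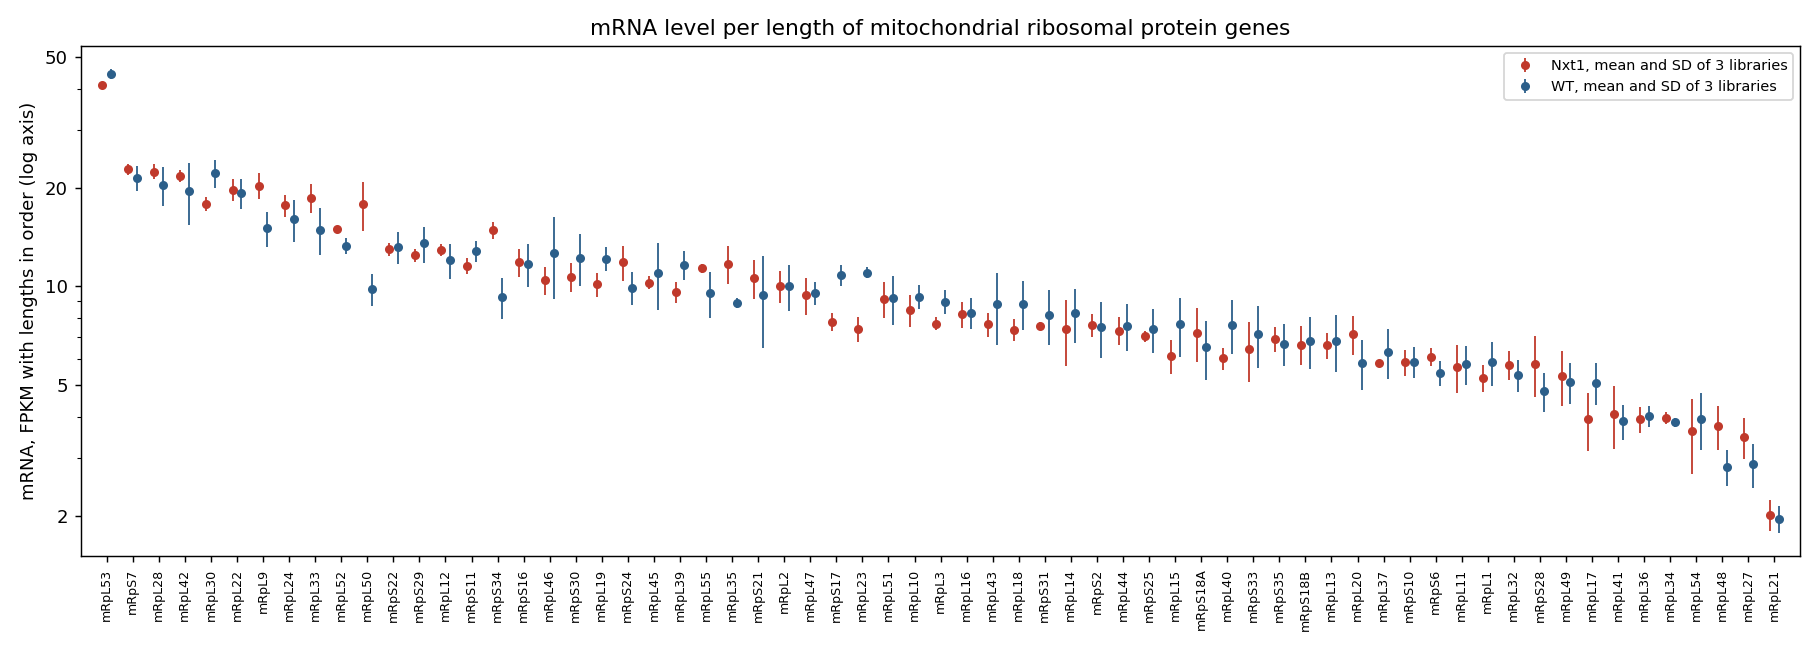
mRNA level per length, as FPKM with lengths in order on a log axis, of the 65 mitochondrial ribosomal protein genes with such a length, from the highest to the lowest mean; points are means of 3 libraries and bars SDs, Nxt1 left of WT for each gene. Apart from mRpL53 and mRpL21 at the ends, most neighbours overlap within their SDs.

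Counting precision differed among the members. Over the 6 libraries a member drew between 236 reads (mRpL34) and 6660 reads (mRpS9), and in a single library between 23 and 1387, with a median of 208.5. The span of 43 members overlaps that of another gene, and the sources used here do not say whether reads were assigned by strand.

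Reads counted as pre-mRNA were scarce for most members. For 60 of the 72 members, or 83.3%, no library had a pre-mRNA read, against 42.3% of the 8923 genes tested for mRNA. The deposited pre-mRNA value was 0 in all libraries for 44 members, undefined for 16 and infinite in a library for 5, which left 7 with finite values above 0. Intronic sequence, taken as gene span minus mRNA length, had a median of 96 bases over 65 members and a maximum of 641. Of these, 9 had none, and mRpS9 was not among the 65. The undefined and infinite values did not follow a member's own introns. mRpL13, with 550 intronic bases, was infinite in a library, while mRpL14, with none, had 0 in all. Members without pre-mRNA reads had a median of 66.5 intronic bases (n = 54), and those with reads had 214 (n = 11).

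Of the members, 5 could be tested for pre-mRNA and for the ratio of mRNA to pre-mRNA, and limma called none in either, against 1.48% of 3576 genes for pre-mRNA and 0.29% of 3103 genes for the ratio. At an unadjusted p under 0.05 there was 1 member in each, mRpL23, and edgeR's quasi-likelihood test on pre-mRNA reads, which kept 2 members, called none. mRpS9, of the small subunit, whose RefSeq span of 13391 bases overlaps ArgRS-m and wtrw, had 36, 77 and 44 pre-mRNA reads in Nxt1 and 86, 85 and 70 in WT, and mRpL53 had 6, 15 and 19 reads in Nxt1 and 10, 21 and 7 in WT. mRpL23, whose mRNA was lower, had 6, 3 and 1 pre-mRNA reads in Nxt1 and 0, 0 and 0 in WT. It was the member nearest to a call, with an adjusted p of 0.0748 for pre-mRNA and 0.0773 for the ratio (limma). With a pseudocount of 0.1 in place of 1 it passed the threshold in both, higher for pre-mRNA and lower for the ratio, on these 10 reads. The remaining pair, mRpL39 and mRpS30, had at most 2 pre-mRNA reads in any library as rebuilt, in the smallest whole numbers that fit. No member was among the genes with a listed circRNA, which numbered 366 in Nxt1 and 445 in WT.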

How the data were processed

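For the 6 M libraries the deposited tables hold FPKM, per the labels, of mRNA and of pre-mRNA. The deposited circRNA lists hold read counts, per the file headers. The submitters' processing notes give DESeq2, Subread with featureCounts 1.6.2, STAR 2.5.3a and Trimmomatic 0.36 as tools, without their roles. The sources used here give neither the genome build nor what was counted as pre-mRNA. Symbols came from the reference table of gene names, which held 17370 of the 17492 identifiers, and gene spans and overlaps from RefSeq, with no coordinates printed since the builds could not be matched.

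Any 2 libraries' FPKM for a gene stand in a ratio of whole numbers, from which reads were rebuilt (tolerance 0.01) for 15293 genes in mRNA and 4543 in pre-mRNA, being all with finite values above 0; 294 and 88 of them needed a shared multiple. They also give each row's length, and the lengths stand beside the wrong genes: over 15222 genes Spearman's rho was 0.03 between a row's length and its own gene's span, and 0.926 when identifiers were sorted and lengths taken by rank. Fold changes within a gene do not depend on the length, but the filter, the weight of the pseudocount and levels between genes do. The undefined and infinite pre-mRNA values were left out. The length behind a pre-mRNA value equalled span minus mRNA length at the same rank for 2944 of 4458 genes compared. Rebuilt reads are the smallest whole numbers that fit, so a shared factor that leaves the length whole would go unseen.

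The test was that of limma 3.58.1 (R 4.3.3) for genes whose mean reached 1 FPKM, on the scale log2(FPKM + 1), Nxt1 minus WT, eBayes with trend, Benjamini-Hochberg over all genes tested, threshold 0.05. The ratio was log2 mRNA minus log2 pre-mRNA within a library. As alternatives, edgeR 4.0.16 (quasi-likelihood, TMM) and DESeq2 1.42.0 were run on recovered reads, beside other pseudocounts, filters, scalings, lengths in order, a replicate block and leaving out each library. The code was tested on simulated data. Intervals and standard errors are limma's.

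Named members are those called (up to 10 per direction), the 3 largest and 3 smallest log2 folds, the 3 highest and 3 lowest levels, those called in pre-mRNA or the ratio, any with a circRNA, and members with a stated role. Of related lists every called gene is named if at most 5, otherwise 4. mRpL30, mRpL35, mRpL48, TFAM, the members with pre-mRNA reads and those listed for groups without overlap were named after their values were seen. Members, lists and tests were chosen with earlier results of these data known. The R libraries enter only through the circRNA lists.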

Additional observations from a re-analysis of the deposited data

How the results depend on the processing

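Of the counts of members called in mRNA, 5 under the main settings, those with another pseudocount, other filters, lengths in order, no trend, edgeR with TMM or with the deposited library factors, and DESeq2 were 4 or 5. With equal totals 28 members were called, and the median log2 fold was -0.295 against -0.007, the median of all genes moving by construction to -0.323. mRpS7, at 0.09, then had a log2 fold of -0.26 (limma, adjusted p = 0.0390). Leaving out single libraries gave 1 to 7 calls by limma, with medians from -0.070 to 0.084. These were 2, 1 and 2 calls without Nxt1 replicates 1, 2 and 3, against 10.1%, 8.51% and 8.54% of all genes. Without WT replicates 1, 2 and 3 there were 1, 4 and 7 calls, against 8.68%, 17.6% and 30.2% of all genes. With edgeR and TMM, 0 members were called without Nxt1 replicate 2 or without WT replicate 1, against 8.77% and 7.86% of all genes. In pre-mRNA and in the ratio, 0 members were called except with a pseudocount of 0.1, where 1 was called in each. The span of levels, 21.5-fold, was 306-fold with the lengths as deposited, which belong to other genes.

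Deviations of same-numbered libraries correlated at -0.08, -0.12 and -0.29, and the highest value was 0.45, for Nxt1 replicate 3 with WT replicate 2. With 3 libraries a group these values cannot decide whether the replicate numbers pair the samples. With the replicate block 1 member (mRpS34) was called in mRNA by limma, against 6.56% of all genes. By edgeR with TMM and the block 0 were called, against 6.9% of all genes. That setting was chosen, like edgeR with the deposited factors, after seeing the data. The block left pre-mRNA and ratio at 0. Of 17 alternatives (16 for mRpL23), mRpL50 kept its call in 13, mRpS34 and mRpS17 in 12, mRpL23 in 11 and mRpL9 in 7. Not among the 17 is edgeR with TMM and a single library left out. There mRpS17 was never called, mRpS34 only without WT replicate 2 or 3, and mRpL9 only without WT replicate 3. In the same fits mRpL23 was called without Nxt1 replicate 1 or WT replicate 2 or 3, and mRpL50 also without Nxt1 replicate 3. Depth limits the pre-mRNA, where most members have no read. For members not called, the 95% intervals given are the folds of FPKM + 1 that 3 libraries a group leave possible.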
